A study of Homo sapiens with 12 samples.

Results

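Phase II enzymes make reactive or foreign molecules less harmful, and 10 of their genes are described here in AsPC-1 cells, a line established from a human pancreatic ductal adenocarcinoma. They encode the quinone reductase *NQO1*, the carbonyl reductases *CBR1* and *CBR3*, the microsomal epoxide hydrolase *EPHX1*, the soluble glutathione transferases *GSTP1*, *GSTO1* and *GSTK1*, and the membrane-bound members *MGST1*, *MGST2* and *MGST3*. Each was found by matching its Ensembl identifier to the gene symbol in both count tables, and the 10 genes are 10 of 57820 rows in each table. All 10 were in both tables and passed the filter on low counts in both experiments. The samples are 12 libraries of rRNA-depleted total RNA in 4 groups of 3. A small interfering RNA (siRNA) against *BACH1*, delivered with a lipid reagent 24 h before harvest, defines siBACH1. Its labelled control is siCont, also at 24 h after transfection. For sgBACH1, cells infected with lentiCRISPR v2, which expresses Cas9, and a guide RNA against *BACH1* were selected in 10 μg/ml puromycin. Its labelled control is sgCont, also with 10 μg/ml puromycin. No source used here names the control siRNA or the control guide. The labels do not say whether the knockout cells are 1 clone or a pool, or whether replicates came from separate cultures. The p-values therefore speak only of library-to-library spread, possibly technical.

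BACH1 is a heme-binding repressor that occupies antioxidant response elements, the DNA sites through which the activator NRF2 switches on detoxifying genes, and loss of BACH1 leaves these sites open to NRF2. *NQO1* is the classical NRF2 target among the 10 genes. Glutathione transferases couple glutathione to electrophiles, epoxide hydrolase opens epoxides with water, and quinone and carbonyl reductases convert their substrates to alcohols or hydroquinones that can then be conjugated.

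Libraries held 13099706 to 21478886 counts. *BACH1* stood at 24.7, 27.5 and 24.5 CPM (edgeR's depth-normalised count unit, here with TMM factors over the 12 libraries) in siBACH1, against 195.5, 288.7 and 194.7 CPM in siCont (log2 fold change -3.15 ± 0.17 SE, edgeR adjusted p = 4.09e-06). It stood at 219.6, 199.2 and 186.2 CPM in sgBACH1, against 269.7, 294.4 and 278.9 CPM in sgCont (-0.48 ± 0.08, edgeR adjusted p = 4.48e-05). A two-sided exact permutation test of 3 against 3 libraries gave p = 0.1 in both, the smallest p it allows, and counts over a gene do not show whether an edited transcript makes protein. Among siCont libraries replicate 2 was the one that differed, with a chi-square per degree of freedom of 27.3 and 31.9 against its fellows and 8.09 between those. The 6 epithelial and ductal markers summed to 12810 to 13150 CPM in siBACH1, 11300 to 12880 CPM in siCont, 12160 to 13670 CPM in sgBACH1 and 18880 to 20590 CPM in sgCont, and endothelial, fibroblast, acinar, endocrine and hepatocyte lists summed to at most 1.51 CPM in any library. The list of 4 blood markers summed to 664.3 to 811.9 CPM in sgBACH1 and 56.3 to 71.1 CPM in sgCont, nearly all of it *LYZ*, lysozyme, which some epithelia also make. Of the other blood markers *CD14* lay between 0.647 and 4.01 CPM and was present in all 12 libraries, while *PTPRC* and *CD3E* reached at most 2.05 and 0.0626 CPM. The part of these shifts in the results was not tested, and in bulk RNA fewer cells of a type and less RNA per cell cannot be told apart.

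*NQO1* and *EPHX1* rose in both experiments, and *MGST1* rose in the knockout. In siBACH1 against siCont 2 of the 10 genes rose and none fell by edgeR, against 10.9% of all 14591 tested genes upwards and 13% downwards, and in sgBACH1 against sgCont 3 rose and none fell, against 11.3% upwards and 12.3% downwards of 14469. The 3 libraries of siBACH1 lay above all of siCont in 6 of the 10 genes, against 21.9% of tested genes, and those of sgBACH1 lay above all of sgCont in 5, against 18.1%. In either direction groups did not overlap in 42.6% and 36.5% of tested genes. At an unadjusted p below 0.05 there were 6 of the 10 genes in each experiment, all higher in the BACH1 group, against 17.5% of all tested genes upwards with the siRNA and 16.4% in the knockout. The median log2 fold change of the 10 genes was 0.22 in both experiments, beside 0.0050 and 0.0055 over all tested genes. Without siCont replicate 2 the siRNA counts were 4 upwards and 2 downwards, and without sgCont replicate 2 the knockout count was 5 upwards. Upwards calls in both experiments were made for 2 of the 10 genes and for 2.31% of the 13845 genes tested in both. Together the 10 genes summed to 2834 to 2880 CPM in siBACH1 and 1604 to 2074 CPM in siCont, and to 2644 to 2798 CPM in sgBACH1 and 1624 to 1690 CPM in sgCont. *NQO1* alone supplied 57.1% to 59.1% of that sum in siBACH1, 41.7% to 47.6% in siCont, 56.4% to 57.1% in sgBACH1 and 41.6% to 45.5% in sgCont.

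**Figure D1:**
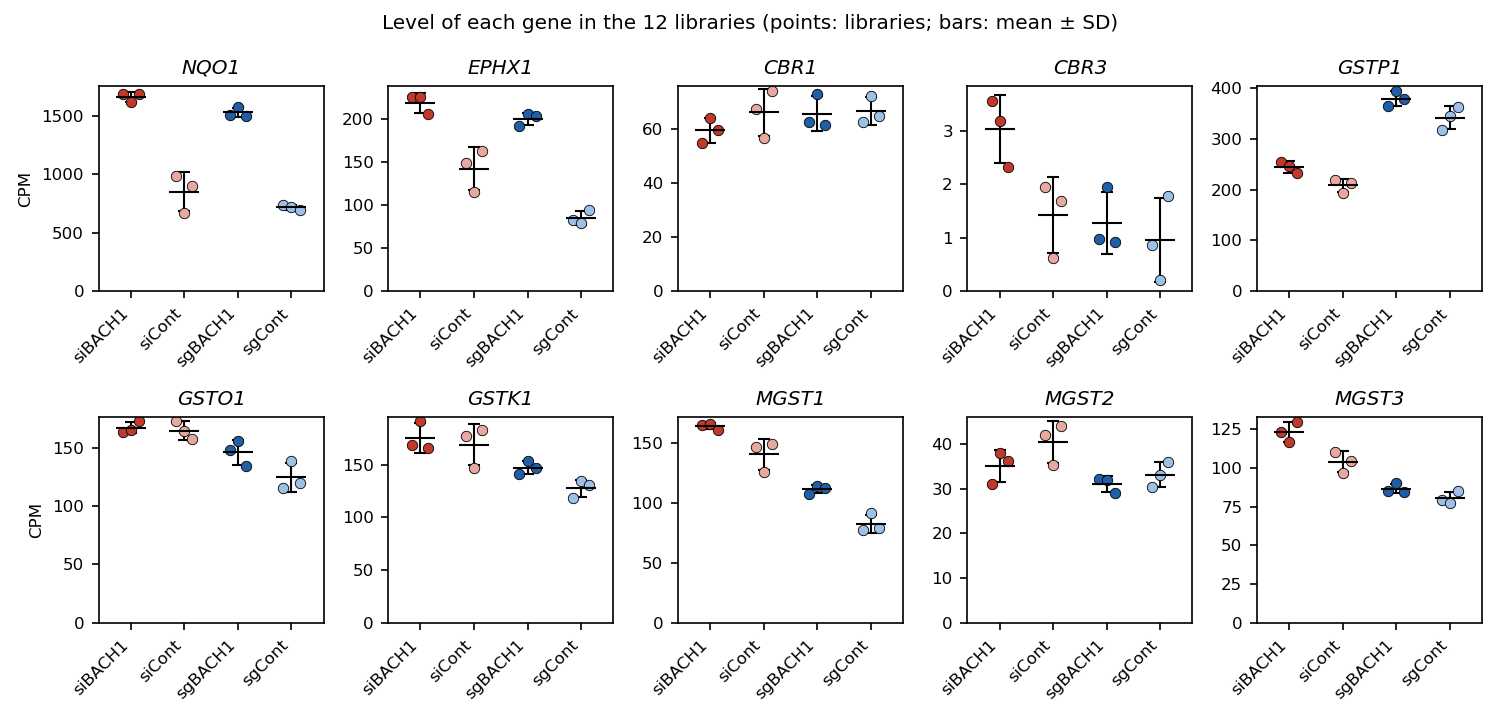
Level of each gene in CPM (linear axis from 0) in siBACH1, siCont, sgBACH1 and sgCont, with points for the 3 libraries of each group and bars for mean ± SD. *NQO1* and *EPHX1* stand apart from their controls in both experiments, *NQO1* at a mean of 1663 CPM in siBACH1 and 851.6 CPM in siCont, while *CBR1* and *MGST2* overlap theirs in both.

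The sequence before the start of 8 of the 10 genes was matched in RefSeq (GRCh38.p14), in 12 windows of 250 bases before to 50 after a start site. *CBR3* and *MGST2* had no window and were not searched. A pair of motifs was searched on both strands: TGACNNNGC, the core of the antioxidant response element, and TGAGTCA, the site of AP-1 factors, which the first can overlap. TGACNNNGC lies in 13.3% and TGAGTCA in 4.95% of all 35116 windows of that length. A match of either was found in 5 windows, those of *EPHX1*, *GSTO1*, *GSTP1*, *MGST1* and *CBR1*. The windows of 3 genes are shown: *NQO1* and *EPHX1*, which rose in both experiments, and *GSTP1*, the one gene of the 8 searched whose window holds both motifs. Capitals mark the motif letters, and sequences run 5′ to 3′ on the strand of the gene.
*NQO1* (chr16:69726511-69726810, minus strand): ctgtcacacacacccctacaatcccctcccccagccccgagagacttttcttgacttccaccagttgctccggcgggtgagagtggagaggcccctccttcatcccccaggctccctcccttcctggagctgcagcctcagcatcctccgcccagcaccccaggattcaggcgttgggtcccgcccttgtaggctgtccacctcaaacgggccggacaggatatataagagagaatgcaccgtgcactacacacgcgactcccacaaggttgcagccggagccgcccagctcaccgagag
*EPHX1* (chr1:225825104-225825403, plus strand): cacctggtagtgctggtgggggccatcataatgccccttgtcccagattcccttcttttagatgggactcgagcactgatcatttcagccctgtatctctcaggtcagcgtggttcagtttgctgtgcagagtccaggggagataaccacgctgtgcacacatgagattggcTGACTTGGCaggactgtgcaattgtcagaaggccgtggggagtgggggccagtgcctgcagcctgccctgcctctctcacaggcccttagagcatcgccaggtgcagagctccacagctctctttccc
*GSTP1* (chr11:67583562-67583861, plus strand): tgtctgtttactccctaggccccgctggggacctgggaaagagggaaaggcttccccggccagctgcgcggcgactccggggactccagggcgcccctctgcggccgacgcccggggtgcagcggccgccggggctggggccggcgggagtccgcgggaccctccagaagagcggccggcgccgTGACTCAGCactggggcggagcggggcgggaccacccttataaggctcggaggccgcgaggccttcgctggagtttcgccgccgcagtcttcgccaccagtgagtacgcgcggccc
The *NQO1* window holds neither motif, which says only that these letters are not in this stretch. In *GSTP1* TGACTCAGC begins 66 bases before the start site, and its first 7 letters read TGAGTCA on the other strand. In *EPHX1* TGACTTGGC begins 78 bases before 1 of its 3 start sites, and its other windows hold neither motif. *GSTO1* carries TGACTGAGC and TGACACAGC, *MGST1* carries TGACAAAGC after 1 of its 3 start sites, and *CBR1* carries TGACTTTGC on the other strand. A match is a description of letters and not evidence of binding.

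*NQO1* (ENSG00000181019.8, chromosome 16, 69706996 to 69726951 on GRCh38) encodes an enzyme that reduces quinones by 2 electrons and so bypasses reactive semiquinones. With the siRNA it stood at 1689, 1617 and 1685 CPM in siBACH1, against 987.6, 669.5 and 897.8 CPM in siCont. The groups did not overlap, siBACH1 libraries were close to each other, and siCont replicate 2 had the lowest *NQO1* of the siCont libraries. That library was the lowest of siCont for every one of the 10 genes but *GSTO1*, and it had the highest *BACH1* of siCont. The average was 1663 ± 40.6 CPM for siBACH1 and 851.6 ± 164.0 CPM for siCont (SD, n = 3 each), which gave a log2 fold change of 0.96 ± 0.12 (SE; 1.95-fold; edgeR adjusted p = 0.000603). In the knockout it stood at 1510, 1577 and 1499 CPM in sgBACH1, against 738.9, 718.1 and 694.6 CPM in sgCont. Here too the groups did not overlap, and the sgCont libraries were tight. The average was 1529 ± 42.2 CPM for sgBACH1 and 717.2 ± 22.2 CPM for sgCont (SD, n = 3 each), which gave a log2 fold change of 1.09 ± 0.06 (SE; 2.13-fold; edgeR adjusted p = 2.36e-12). The knockout response minus the siRNA response was 0.13 on the log2 scale, with a 95% interval from -0.17 to 0.42 (edgeR adjusted p = 0.587). Without siCont replicate 2 that difference stood at 0.27 and passed (edgeR adjusted p = 0.0139), with the siRNA response at 0.81 and the SE of the difference at 0.08, against 0.14 with all libraries.

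Ordered by level, siBACH1 (1617 to 1689 CPM) lay above sgBACH1 (1499 to 1577 CPM), both lay above the controls, and siCont (669.5 to 987.6 CPM) and sgCont (694.6 to 738.9 CPM) overlapped. An order across experiments cannot be told apart from their differences in cells, transfection and selection. Per kilobase of transcript *NQO1* ranked 19th in siBACH1, 53rd in siCont, 23rd in sgBACH1 and 67th in sgCont among 11915 coding genes. These ranks use the median transcript length and were not taken with another length. An antisense gene on the opposite strand shares 17.7% of its exon bases and was at 0 counts in all libraries.

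*EPHX1* (ENSG00000143819.8, chromosome 1, 225810092 to 225845563) encodes the epoxide hydrolase of the endoplasmic reticulum. With the siRNA it stood at 226.1, 226.5 and 206.0 CPM in siBACH1, against 149.5, 115.0 and 163.2 CPM in siCont. Every siBACH1 library lay above every siCont library, with siCont replicate 2 again lowest. The average was 219.5 ± 11.8 CPM for siBACH1 and 142.5 ± 24.8 CPM for siCont (SD, n = 3 each), which gave a log2 fold change of 0.62 ± 0.12 (SE; 1.53-fold; edgeR adjusted p = 0.00572). In the knockout it stood at 192.3, 205.8 and 203.5 CPM in sgBACH1, against 82.4, 79.2 and 94.0 CPM in sgCont. These groups lay further apart than those of the siRNA experiment. The average was 200.5 ± 7.23 CPM for sgBACH1 and 85.2 ± 7.80 CPM for sgCont (SD, n = 3 each), which gave a log2 fold change of 1.24 ± 0.08 (SE; 2.36-fold; edgeR adjusted p = 5.73e-11).

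*EPHX1* was the one gene of the 10 that passed the test of a difference between its responses. The knockout response exceeded the siRNA response by 0.61 ± 0.15 on the log2 scale (SE; 95% interval 0.29 to 0.93; edgeR adjusted p = 0.00699), where 23.6% of all 15644 tested genes passed. Its level was close in siBACH1 (206.0 to 226.5 CPM) and sgBACH1 (192.3 to 205.8 CPM), whereas siCont (115.0 to 163.2 CPM) lay above sgCont (79.2 to 94.0 CPM). Cells, transfection and selection differ between the experiments together with the control, so these cannot be told apart. *EPHX1* shares 28 exon bases with *TMEM63A* on the opposite strand, which rose with the siRNA (0.77 ± 0.12, edgeR adjusted p = 0.00171) and not in the knockout (0.05 ± 0.11, adjusted p = 0.812). Its part in the *EPHX1* counts was not tested.

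The carbonyl reductases both lie on chromosome 21, the chromosome of *BACH1*. *CBR1* (ENSG00000159228.8, 36069941 to 36073166), which reduces quinones and prostaglandins, stood at 54.7, 64.3 and 59.5 CPM in siBACH1, against 67.4, 56.8 and 74.2 CPM in siCont. Both groups overlapped, and they did so again in the knockout, at 62.8, 73.0 and 61.5 CPM in sgBACH1 and 62.5, 72.3 and 64.8 CPM in sgCont. The log2 fold changes were -0.16 ± 0.11 and -0.02 ± 0.11 (SE; edgeR adjusted p = 0.352 and 0.942), with 95% intervals from -0.41 to 0.10 and from -0.23 to 0.20. Neither interval reaches the rise of *NQO1*. Without siCont replicate 2 the siRNA value stood at -0.26 and passed (edgeR adjusted p = 0.018).

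*CBR3* (ENSG00000159231.5, 36134912 to 36146566), a close relative of *CBR1*, was near the floor of the data. It had 59, 64 and 51 counts in siBACH1, against 28, 8 and 29 in siCont, and 16, 31 and 19 counts in sgBACH1, against 16, 3 and 30 in sgCont. SiBACH1 lay above siCont, from 2.33 to 3.56 CPM in siBACH1 and 0.627 to 1.96 CPM in siCont, while sgBACH1 and sgCont overlapped. The log2 fold changes were 1.06 ± 0.40 with the siRNA (edgeR adjusted p = 0.0859) and 0.40 ± 0.70 in the knockout (edgeR adjusted p = 0.75), and the interval of the knockout value, from -1.04 to 1.85, holds both no change and a rise larger than that of *NQO1*. Without a low count filter the siRNA value passed (1.06, edgeR adjusted p = 0.035), and in the knockout the value ran from -0.05 without sgCont replicate 2 to 1.203 without sgCont replicate 3. *CBR3-AS1*, on the opposite strand, shares 42.2% of the exon bases of *CBR3* and had 0, 1 and 5 counts in siBACH1, against 10, 9 and 3 in siCont, where its part in the *CBR3* counts was not tested. Read in the direction of each transcript, no stretch of 50 bases is shared between *CBR1* and *CBR3* or with any other annotated gene. Sequence on the opposite strand, such as that of *CBR3-AS1*, was not part of this search.

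*GSTP1* (ENSG00000084207.11, chromosome 11, 67583595 to 67586656), the pi class transferase that dominates in many epithelial tumours, stood at 255.0, 246.6 and 233.0 CPM in siBACH1, against 218.5, 193.4 and 214.3 CPM in siCont. In the knockout it stood at 364.4, 394.5 and 379.7 CPM in sgBACH1, against 318.4, 345.4 and 363.8 CPM in sgCont. In both experiments the lowest library of the BACH1 group lay above the highest control, in the knockout by less than 1 CPM. The log2 fold changes were 0.23 ± 0.08 (edgeR adjusted p = 0.0649) and 0.15 ± 0.07 (edgeR adjusted p = 0.145), and their upper 95% bounds of 0.40 and 0.30 lie below the values of *NQO1* and *EPHX1*. The siRNA value passed by upper quartile scaling (0.26, edgeR adjusted p = 0.0445), in 1 fit of all 12 libraries (0.23, edgeR adjusted p = 0.0385) and without siCont replicate 2 (0.17, edgeR adjusted p = 0.0255). All 6 libraries of the knockout experiment lay above all 6 of the siRNA experiment, where cells, transfection and selection differ together.

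*GSTO1* (ENSG00000148834.8, chromosome 10, 104235356 to 104267459) encodes an omega class enzyme that reduces dehydroascorbate and methylated arsenic. It stood at 163.6, 164.9 and 172.7 CPM in siBACH1, against 172.5, 164.2 and 157.0 CPM in siCont, with full overlap (log2 fold change 0.02 ± 0.07, edgeR adjusted p = 0.895). Knockout levels were 147.7, 155.8 and 134.3 CPM in sgBACH1, against 115.2, 138.8 and 119.3 CPM in sgCont, where sgCont replicate 2 reached into the range of sgBACH1. The log2 fold change was 0.23 ± 0.09 (edgeR adjusted p = 0.0637), and without sgCont replicate 2 it was 0.32 and passed (edgeR adjusted p = 0.0114), as it did with the replicate numbers as a block (0.23, edgeR adjusted p = 0.0332). Transcripts of *GSTO1* share 2.38% of their stretches of 50 bases with the pseudogene *GSTO3P*.

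*GSTK1* (ENSG00000197448.9, chromosome 7, 143244093 to 143270854), the kappa class enzyme of mitochondria and peroxisomes, stood at 168.7, 191.4 and 166.0 CPM in siBACH1, against 177.1, 147.1 and 183.3 CPM in siCont (log2 fold change 0.05 ± 0.10, edgeR adjusted p = 0.775). Knockout levels were 141.5, 153.3 and 146.9 CPM in sgBACH1, against 118.7, 134.4 and 130.5 CPM in sgCont. The siRNA groups overlapped and the knockout groups did not, but the knockout log2 fold change of 0.21 ± 0.08 did not pass (edgeR adjusted p = 0.073) except without sgCont replicate 2 (0.24, edgeR adjusted p = 0.0473).

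The membrane-bound transferases belong to the MAPEG family, whose members act on lipid peroxides and leukotrienes as well as on foreign compounds. *MGST1* (ENSG00000008394.8, chromosome 12, 16347142 to 16609259), which protects membranes of the endoplasmic reticulum and mitochondria, rose in the knockout. It stood at 107.5, 114.3 and 112.3 CPM in sgBACH1, against 77.5, 91.3 and 79.2 CPM in sgCont, with no overlap. The log2 fold change was 0.43 ± 0.09 (SE; 1.35-fold; edgeR adjusted p = 0.000897). With the siRNA it stood at 165.0, 165.7 and 160.9 CPM in siBACH1, against 146.8, 125.7 and 148.7 CPM in siCont, again with no overlap, and the log2 fold change of 0.22 ± 0.08 did not pass (edgeR adjusted p = 0.0928). The knockout response exceeded the siRNA response by 0.21, with a 95% interval from -0.05 to 0.47 (edgeR adjusted p = 0.251), so the responses were not shown to differ. All 6 libraries of the siRNA experiment lay above all 6 of the knockout experiment, the opposite of *GSTP1*. *GSTO1* and *MGST3* had the same order as *MGST1*. Here too cells, transfection and selection differ together.

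*MGST2* (ENSG00000085871.4, chromosome 4, 139665768 to 139740745), which also makes leukotriene C4, stood at 31.0, 38.0 and 36.2 CPM in siBACH1, against 42.1, 35.3 and 44.1 CPM in siCont. Knockout levels were 32.1, 32.0 and 29.1 CPM in sgBACH1, against 30.4, 33.0 and 36.0 CPM in sgCont. Groups overlapped in both, and the log2 fold changes were -0.21 ± 0.12 (edgeR adjusted p = 0.235) and -0.09 ± 0.13 (edgeR adjusted p = 0.693). Without siCont replicate 2 the siRNA value of -0.30 passed (edgeR adjusted p = 0.0224). *MGST3* (ENSG00000143198.8, chromosome 1, 165630861 to 165661796), a glutathione-dependent peroxidase, stood at 123.4, 116.5 and 129.7 CPM in siBACH1, against 110.2, 96.8 and 104.6 CPM in siCont. Knockout levels were 85.2, 90.0 and 84.6 CPM in sgBACH1, against 79.3, 77.0 and 84.8 CPM in sgCont. The siRNA groups did not overlap and the knockout groups did, and neither log2 fold change passed (0.24 ± 0.08, edgeR adjusted p = 0.0632, and 0.11 ± 0.09, adjusted p = 0.454). The siRNA value passed by upper quartile scaling (0.27, edgeR adjusted p = 0.0423), in 1 fit of all 12 libraries (0.25, edgeR adjusted p = 0.0402) and without siCont replicate 2 (0.19, edgeR adjusted p = 0.0279).

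**Figure D2:**
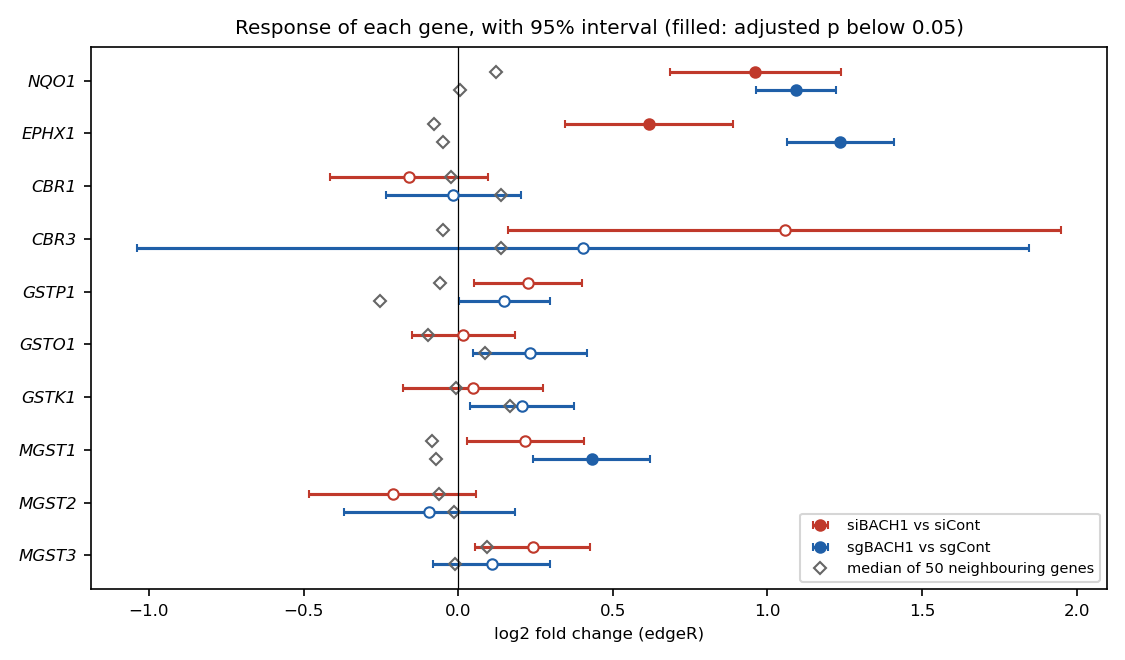
Log2 fold change of each gene by edgeR with its 95% interval, for siBACH1 against siCont (red) and sgBACH1 against sgCont (blue), filled where the adjusted p is below 0.05, with open diamonds for the median of the 50 nearest tested genes on the chromosome. The filled points are *NQO1* and *EPHX1* in both comparisons and *MGST1* in the knockout at 0.43.

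The 50 tested genes nearest to *NQO1*, 25 on either side, had a median log2 fold change of 0.12 with the siRNA and 0.0045 in the knockout, those nearest to *EPHX1* -0.08 and -0.05, and those nearest to *MGST1* -0.08 and -0.07. *GSTP1* stood at 0.15 in the knockout among neighbours with a median of -0.25, of which 3 rose and 20 fell. A pair of 3′ UTR words, AACATTA and ACATTAA, was picked because an earlier analysis of these data found them among genes that fell with the siRNA. Their share among those genes is therefore a description and not a test. At least 1 of the words was found in 54.5% of the genes that fell with the siRNA and in 13.1% of those that rose. Of all tested genes with a 3′ UTR 24.7% carry one. Of the 10 genes *MGST1* carries ACATTAA and *MGST3* carries both, and neither fell with the siRNA. *NQO1* and *EPHX1* carry neither.

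Compared per kilobase of transcript, *NQO1* was the most abundant of the 10 genes in every group, *GSTP1* came next and *CBR3* last. *NQO1* averaged 1640 ± 40.0 CPM per kb in siBACH1, 839.5 ± 161.6 in siCont, 1507 ± 41.6 in sgBACH1 and 707.0 ± 21.8 in sgCont (SD, n = 3 each). *GSTP1* averaged 330.5 ± 15.0 CPM per kb in siBACH1, 281.7 ± 18.2 in siCont, 512.2 ± 20.3 in sgBACH1 and 462.2 ± 30.8 in sgCont. *GSTK1*, *GSTO1*, *MGST1* and *MGST3* lay together between 90.7 and 181.6 CPM per kb, and their order was not the same in every group. *EPHX1* was 7th of the 10 in siBACH1, siCont and sgBACH1 and 8th in sgCont, behind *CBR1*. These levels depend on the length used. With the union of all exons in place of the median transcript, *NQO1*, *GSTP1* and *CBR3* kept their places and *EPHX1* stood 4th in every group, but *NQO1* averaged 511.2 CPM per kb in siBACH1 and 261.7 in siCont. The 4 transferases then no longer lay together: in siBACH1 *GSTO1* averaged 98.8, *GSTK1* 41.5 and *MGST3* 14.7 CPM per kb, with *MGST1* between *GSTK1* and *MGST3*.

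**Figure D3:**
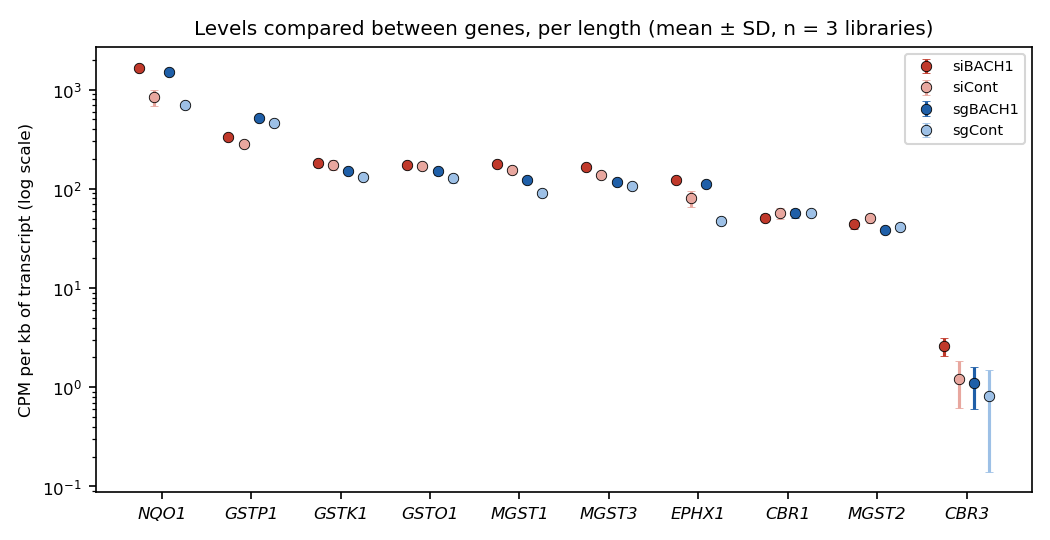
Level of each gene in CPM per kilobase of transcript (log axis), as mean ± SD of 3 libraries in siBACH1, siCont, sgBACH1 and sgCont. *NQO1* stands highest, at 1640 in siBACH1 and 839.5 in siCont, and *CBR3* lowest, at 0.815 in sgCont.

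Over the 12 libraries, each gene centred within its experiment, the 5 genes of 11244 compared whose log2 CPM ran most like *NQO1* were *AKR1C3* (Pearson r 0.989), *C2orf72* (0.987), *SEPTIN8* (0.983), *TRIM31* (0.981) and *AKAP1* (0.979). Those most like *EPHX1* were *HNF4A* (0.994), *SAPCD2* (0.993), *NANS* (0.986), *CELSR2* (0.984) and *LRP1* (0.983). The correlation between *NQO1* and *EPHX1* was 0.951, and those of *NQO1* with *MGST1*, *GSTP1* and *MGST3* were 0.920, 0.845 and 0.827, against -0.19 with *CBR1* and -0.43 with *MGST2*. These describe 12 libraries that share groups, and a gene that responds in both experiments tends to correlate with another that does. *AKR1C3* stood at 0.92 with the siRNA and 0.97 in the knockout, close to *NQO1*, and *HNF4A* at 0.57 and 1.14, close to *EPHX1*.

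Other phase II genes were taken as 3 lists. Of 14 listed quinone, epoxide and carbonyl enzymes, 11 were tested with the siRNA, of which 1 rose and 2 fell, and 12 in the knockout, of which 1 rose and 2 fell, with median log2 fold changes of -0.0027 and -0.11. Over all tested genes 23.9% were called in either direction with the siRNA and 23.5% in the knockout. *NQO2*, the relative of *NQO1* that uses dihydronicotinamide riboside, averaged 54.3 ± 3.92 CPM in sgBACH1 and 30.8 ± 2.75 CPM in sgCont (SD, n = 3 each; log2 0.82 ± 0.12, edgeR adjusted p = 1.61e-05). With the siRNA it stood at -0.03 ± 0.13 (edgeR adjusted p = 0.883), and the responses differed (edgeR adjusted p = 0.00223). It carries AACATTA and ACATTAA in its 3′ UTR, as does *CBR4*, a mitochondrial carbonyl reductase that fell by 1.39 ± 0.16 with the siRNA (edgeR adjusted p = 0.0003). *PTGR1*, prostaglandin reductase 1, rose by 0.48 ± 0.10 with the siRNA and stood at -0.29 ± 0.15 in the knockout, where it did not pass (difference, edgeR adjusted p = 0.00154). *CYB5R3*, cytochrome b5 reductase, fell by 0.79 ± 0.09 in the knockout and stood at 0.04 ± 0.10 with the siRNA (difference, edgeR adjusted p = 0.000349). *EPHX2*, the soluble epoxide hydrolase, passed in neither. *DHRS4*, a retinal and carbonyl reductase, fell by 0.88 ± 0.26 with the siRNA (edgeR adjusted p = 0.0391) and by 0.74 ± 0.24 in the knockout (edgeR adjusted p = 0.0261). Its calls were lost in 5 of 13 siRNA alternatives and 4 of 13 knockout ones.

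Of 22 listed glutathione transferases and relatives, 21 had a row in the tables, 9 were tested with the siRNA and 10 in the knockout. The share of all tested genes called in either direction was 23.9% with the siRNA and 23.5% in the knockout. None was called with the siRNA by edgeR, with 1 at an unadjusted p below 0.05, nor by DESeq2, while limma-voom and 1 fit of all 12 libraries each called 1 downwards and 2 fell without siCont replicate 2. In the knockout 1 fell, *PTGES*, a prostaglandin E synthase of the MAPEG family, at 1.82 ± 0.69 CPM in sgBACH1 and 4.68 ± 0.20 CPM in sgCont (log2 -1.35 ± 0.42, edgeR adjusted p = 0.0192), and it did not pass without sgBACH1 replicate 1 or 2 (edgeR adjusted p = 0.0861 and 0.0834). None rose in the knockout by edgeR, while limma-voom called 2 upwards, and DESeq2, 1 fit of all 12 libraries, the replicate block and the fits without sgCont replicate 1 or 3 each called 1. *GSTA1* and *GSTA2*, the alpha class enzymes of liver, were at 0 counts in all 12 libraries, where a count of 0 allows up to 3 counts in a library from counting error alone. *GSTO2*, *GSTZ1*, *GSTM4* and *GSTA4* were tested in both and passed in neither.

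The enzymes that attach sugar, sulfate, acetyl or methyl groups, with genes that supply their donors, made the largest list. It held 36 genes, of which 15 were tested in each experiment. With the siRNA 7 rose and 1 fell, against 10.9% upwards and 13% downwards of all tested genes. The median log2 fold change was 0.40 there, beside 0.0050 over all genes. In the knockout 2 rose and 4 fell, against 11.3% upwards and 12.3% downwards of all tested genes, with a median of -0.02. The siRNA count of rises was 5, 4 and 3 without siBACH1 replicate 1, 2 and 3, and 4, 7 and 4 without siCont replicate 1, 2 and 3, with 3 falls where siCont replicate 2 was left out. *UGDH*, which makes the UDP-glucuronic acid that glucuronosyltransferases use, was called in both experiments. It averaged 470.8 ± 23.8 CPM in siBACH1 and 237.9 ± 5.01 CPM in siCont (log2 0.98 ± 0.07, edgeR adjusted p = 2.19e-05), and 312.7 ± 15.4 CPM in sgBACH1 and 170.0 ± 14.2 CPM in sgCont (SD, n = 3 each; 0.88 ± 0.08, edgeR adjusted p = 5.17e-09). *PAPSS2*, which makes the sulfate donor, rose by 0.67 ± 0.13 with the siRNA and fell by 1.19 ± 0.10 in the knockout, and the responses differed (edgeR adjusted p = 5.4e-07). *UGT8*, a galactosyltransferase, likewise rose by 0.45 ± 0.10 with the siRNA and fell by 0.58 ± 0.14 in the knockout (difference, edgeR adjusted p = 0.000142), and the siRNA call was lost without siBACH1 replicate 3 (edgeR adjusted p = 0.0528).

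Another 4 siRNA calls did not hold in every alternative. *UGP2*, which makes UDP-glucose, rose by 0.31 ± 0.09, *TPMT*, thiopurine methyltransferase, by 0.41 ± 0.13 and *NAT1*, an arylamine acetyltransferase, by 0.56 ± 0.15, while *PAPSS1*, the relative of *PAPSS2*, fell by 0.35 ± 0.09 and carries ACATTAA in its 3′ UTR. These calls were lost in 7, 5, 4 and 4 of 13 alternatives.

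*UGT1A10*, a glucuronosyltransferase of the gut whose exons are shared within the *UGT1A* cluster so that its counts are uncertain, averaged 113.5 ± 12.1 CPM in siBACH1 and 53.5 ± 8.53 CPM in siCont (log2 1.08 ± 0.13, edgeR adjusted p = 0.00038), and was not called in the knockout (-0.12). In the knockout the sulfotransferase *SULT2B1* rose to 19.6 ± 2.68 CPM in sgBACH1, against 4.08 ± 1.76 CPM in sgCont (log2 2.25 ± 0.26, edgeR adjusted p = 3.36e-07), among neighbours on chromosome 19 with a median of 0.44. With the siRNA *SULT2B1* averaged 16.95 CPM in siBACH1 and 14.73 CPM in siCont (log2 0.20 ± 0.12, edgeR adjusted p = 0.281), and the responses differed (edgeR adjusted p = 0.000102). *SULT1A1*, a phenol sulfotransferase with close relatives and AACATTA in its 3′ UTR, fell by 0.74 ± 0.15 in the knockout, among neighbours on chromosome 16 with a median of -0.44.

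**Figure D4:**
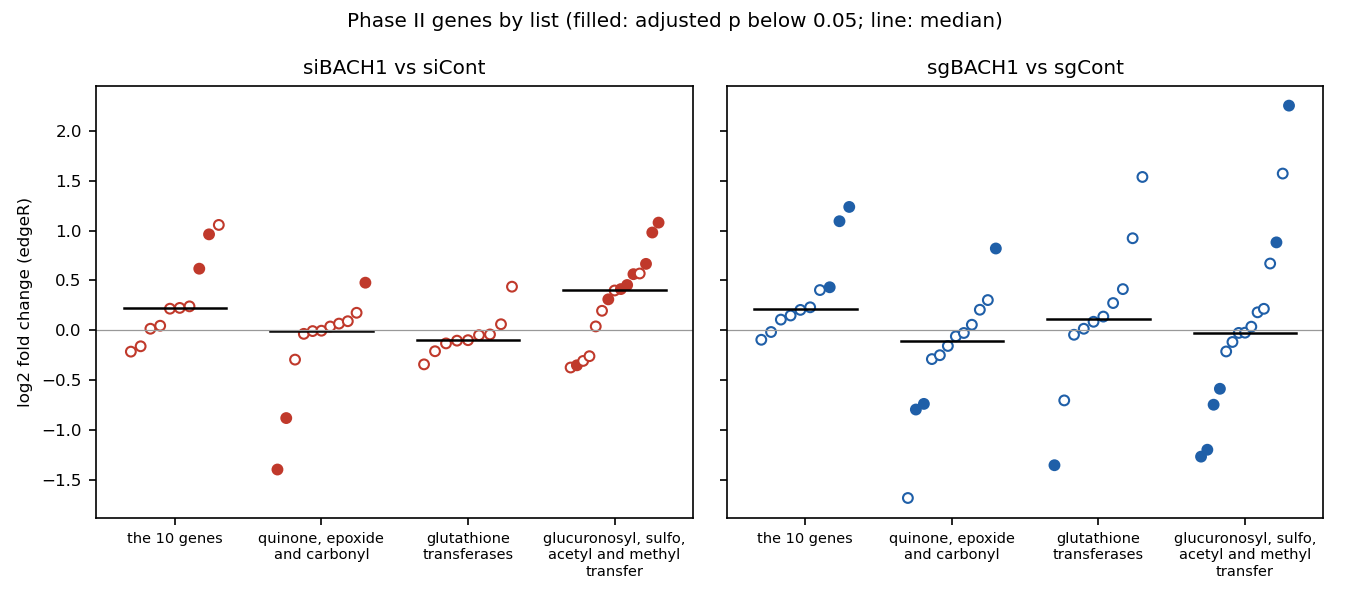
Log2 fold change of the 10 genes and of 3 lists of other phase II genes by edgeR, for siBACH1 against siCont (left) and sgBACH1 against sgCont (right), with 1 point per tested gene, filled where the adjusted p is below 0.05, and a line at the list's median. The 10 genes have a median of 0.22 in both panels. The list of sugar, sulfate, acetyl and methyl transfer, which includes genes of donor supply, has 0.40 on the left and -0.02 on the right.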

How the data were processed

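Gene counts were measured in 12 libraries of AsPC-1 cells, 3 per group, grouped by their titles. The authors deposited whole-number read counts for each gene in 1 table per experiment. Per the submitters' processing notes HTSeq 0.9.1, SAMtools and the build hg19 were involved. Aligner, counting mode and strand setting: not given in the sources used here, so reads of genes that overlap on opposite strands cannot be told apart. Depth is the sum over genes. Fragments of rRNA-depleted RNA were sequenced on an Ion Proton, per the labels' protocols, and such RNA can include unspliced transcripts.

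Symbols came from a table of gene names for 51996 of 57820 identifiers and from GENCODE 29 for 342. Exon coordinates, transcript lengths and 3′ UTRs are those of GENCODE 29 on GRCh38 and were used for lengths, neighbours and overlaps only, not set against hg19 coordinates. The test was edgeR's (4.0.16, R 4.3.3) two-sided quasi-likelihood F-test after TMM scaling and filterByExpr (minimum count 10). Its p-values were adjusted by Benjamini-Hochberg across the genes of each fit, and 0.05 was the threshold for a call. The siRNA and knockout experiments had separate fits, and the difference of the responses in 1 fit of all 12 libraries. A standard error is the log2 fold change over the square root of F, and the 95% interval uses the test's degrees of freedom. CPM use TMM factors over the 12 libraries, while fold changes come from the fits. Such scaling does not remove differences between the experiments, so the cause of an order of levels across them was not tested. CPM per kb divide by the median length of the gene's basic protein-coding transcripts. The exact permutation test used log2(CPM + 1). Correlations used log2 CPM with a prior count of 2 over genes averaging 1 or more on that scale in both experiments.

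The alternatives were upper quartile and RLE scaling, no low count filter, DESeq2 1.42.0, limma-voom (limma 3.58.1), the replicate number as a block, 1 fit of all 12 libraries and leaving out each library. The union of exons as the length was added after seeing the data. Simulated counts with known changes in genes drawn at random served to check the fits. Of 1.5-fold changes 32.4% were recovered with the siRNA, 37.3% in the knockout and 14.3% for the difference. For 2-fold changes the shares were 67.7%, 71.2% and 42.9%. The simulation changed fewer genes than were called in the data and drew them from all tested genes. Its shares are therefore not those of a given gene. Among the 10 genes only *CBR3* had values that did not pass with a 95% interval that holds a 2-fold change. A value that did not pass is still not shown to be unchanged. The 10 genes and the lists were chosen with earlier results of these data known. Genes named are the 10 genes, *BACH1*, members of 3 lists of other phase II genes called in either experiment, and the 5 genes most like *NQO1* and *EPHX1*; *TMEM63A*, *CBR3-AS1*, *LYZ* and list members that were not called were named after their values were seen. A called gene of these lists is not reported here.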

Additional observations from a re-analysis of the deposited data

Results flagged for a closer look

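The response of *EPHX1* differed between the experiments: the knockout response minus the siRNA response was 0.61 ± 0.15 on the log2 scale (SE; edgeR adjusted p = 0.00699), with every library of each BACH1 group above every library of its control. It was called in all 18 alternatives, at 0.51 to 0.75 (edgeR, DESeq2 or limma adjusted p from 1.68e-05 to 0.0284).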

How the results depend on the processing

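*NQO1* and *EPHX1* were called upwards in both experiments, and *MGST1* in the knockout, in all 13 alternatives of each comparison. With the siRNA *NQO1* ran from 0.81 to 1.07 and *EPHX1* from 0.48 to 0.72, and in the knockout they ran from 1.07 to 1.12 and from 1.19 to 1.31, with *MGST1* from 0.39 to 0.51 (log2). Leaving out 1 library gave 2002 to 5121 called genes with the siRNA, against 3481 with all libraries (2002, 2078 and 2096 without siBACH1 replicate 1, 2 and 3), 2500 to 3586 in the knockout, against 3407, and 2960 to 3990 for the difference, against 3687. It gave 2 to 4 of the 10 genes upwards and 0 to 2 downwards with the siRNA, 3 to 5 upwards in the knockout and 1 to 2 for the difference, the highest of each without siCont or sgCont replicate 2. With upper quartile scaling and with 1 fit of all 12 libraries 4 rose with the siRNA.

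Directions turned for 6 values that had not passed, each when 1 library was left out, and the cause was not tested. With the siRNA *GSTO1* ran from -0.022 to 0.041 (below 0 without siBACH1 replicate 3, at -0.012, and siCont replicate 3) and *GSTK1* from -0.046 to 0.103 (below 0 without siBACH1 replicate 2, at -0.025, and siCont replicate 2). In the knockout *CBR1* ran from -0.095 to 0.047 (above 0 without sgBACH1 replicate 1 or 3 or sgCont replicate 2) and *CBR3* from -0.053 to 1.203 (below 0 without sgBACH1 replicate 2, at -0.015, and sgCont replicate 2). The difference of *NQO1* ran from -0.0022 without siCont replicate 1 to 0.274 without siCont replicate 2, where it passed, and that of *CBR3* from -1.12 to 0.111 without sgCont replicate 3.

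Any pairing of libraries by replicate number was weak. Deviations of same-numbered libraries correlated at 0.0198 to 0.0572 in the siRNA experiment and -0.0153 to 0.0486 in the knockout. In the siRNA experiment each library correlated best with its own number, as a hint from the data. With the replicate block 3196, 3530 and 3513 genes were called with the siRNA, in the knockout and for the difference, and the calls of the 10 genes were as without it, with *GSTO1* added in the knockout. Depth limits *CBR3* most, at 3 to 64 counts per library.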
